A study of Arabidopsis thaliana with 9 samples.

Results

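The genes described here are 24 Arabidopsis thaliana transcription factor genes of the WRKY, bHLH, bZIP and NAC families. They were taken by name: a probe set had to name exactly 1 gene, and that gene's symbol in the array annotation had to start with WRKY, NAC, MYB, BZIP, BHLH, ERF or HB followed by a digit. Of 13356 genes named by such probe sets, 26 met this condition, and WRKY53 and BZIP60 were left out by the selection rule, which leaves 24. The bZIP family holds 13 of them, the WRKY and bHLH families 5 each, and the NAC family 1. No measured symbol of this form started with MYB, ERF or HB. Most genes on the array are named by a locus code alone, so the 24 are the named members of these families and not the families themselves. Each of the 24 genes has 1 probe set, so no choice between probe sets was needed.

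Transcript levels were measured in untreated seedlings of ecotype col 1 that were 21 days old and had been raised on MS medium with no antibiotic. The first group is line 22, which expresses the rice gene OsSAP11, and the second is line 25, which expresses the rice gene OsRLCK253. The third group is untransformed wild type. Each group has 3 arrays, called biological replicates by the labels. The products are a zinc-finger protein of the stress-associated protein family (OsSAP11) and a cytoplasmic kinase of the receptor-like group (OsRLCK253). With a single line for each transgene, line and transgene cannot be told apart, and the sources used here do not give the promoters. The seedlings are whole, so a lower signal cannot be divided into fewer cells of a type and less RNA per cell.

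WRKY proteins bind W-box elements and act mainly in defence, senescence and nutrient responses. The bHLH proteins measured here belong to the network that senses iron shortage and turns on iron uptake, in which bHLH34, bHLH104 and bHLH115 act together with bHLH121 upstream of BHLH101 and of PYE. Plant bZIP proteins bind ACGT-containing elements as dimers, and different groups of them serve low-energy signalling, the unfolded protein response and zinc homeostasis. NAC proteins share a plant-specific DNA-binding domain and act in development, stress and senescence.

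Against wild type, 4 of the 24 genes differed in the OsSAP11 line, and 5 did so in the OsRLCK253 line, at an adjusted p under 0.05 (limma, adjusted over all 22746 probe sets tested). Over all probe sets, 12.6% were called for the OsSAP11 line and 13.8% for the OsRLCK253 line, which puts the 16.7% and 20.8% of these genes near the background. WRKY22, BZIP53 and bHLH121 were called lower and bHLH34 was called higher in each comparison, and the comparisons share their wild type arrays. The fifth gene, bHLH115, was called higher in the OsRLCK253 line. The calls were 1 higher and 3 lower in the OsSAP11 line, where 7.44% of all probe sets were called higher and 5.17% lower. They were 2 higher and 3 lower in the OsRLCK253 line, against 6.95% and 6.85% of all probe sets. Differences are given in log2(signal + 16), where the signal is the array's brightness on a linear scale. The median log2 difference of the 24 genes was -0.0028 for the OsSAP11 line and 0.0068 for the OsRLCK253 line, beside medians of -0.0021 and 0.0137 over all probe sets. The genes that set the medians of the 24 were under 16 on all 9 arrays, where adding 16 makes differences small. Among the 13 genes with a mean signal of at least 32, the medians were 0.021 and 0.048. The arrays of the OsSAP11 line did not overlap those of wild type for 7 genes (29.2%, against 31.7% of all probe sets), and those of the OsRLCK253 line for 9 genes (37.5%, against 46.4%). WRKY53 and BZIP60, which the rule leaves out, were themselves called lower in both lines, so that these counts leave 2 called genes of the WRKY and bZIP families aside.

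**Figure D1:**
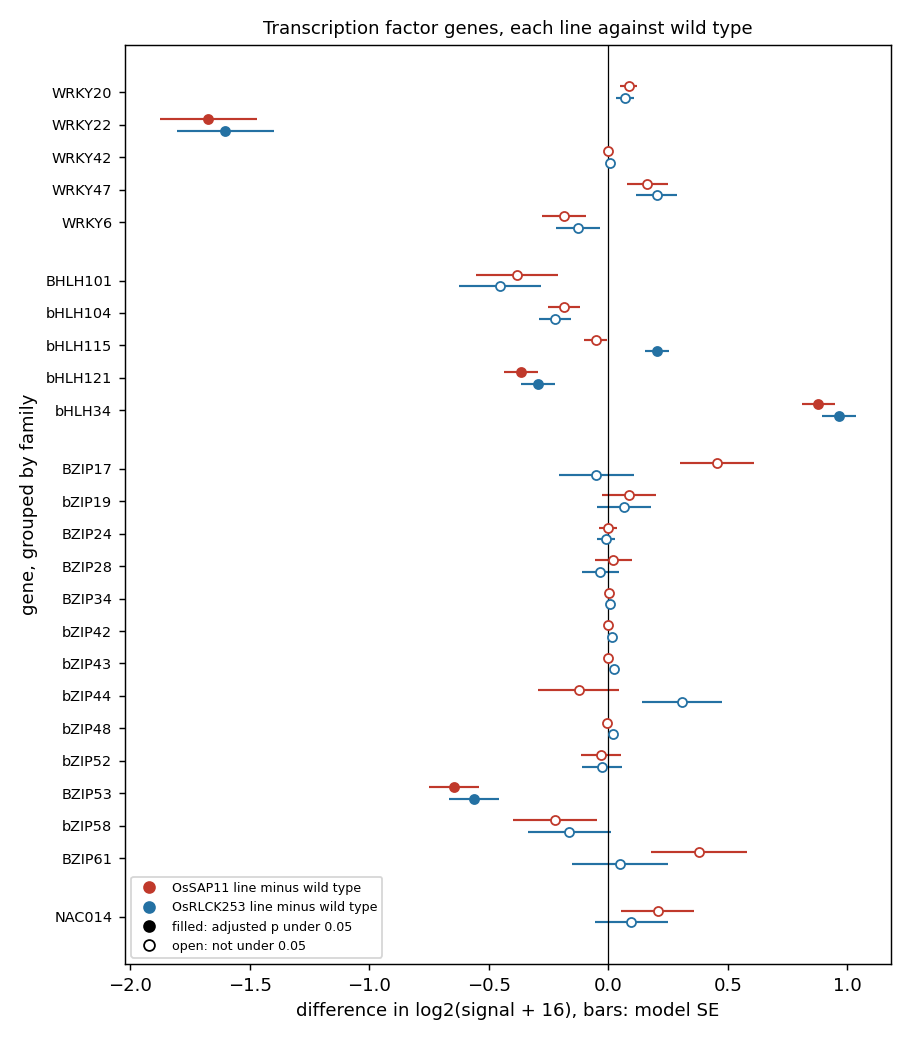
Difference in log2(signal + 16) from wild type for the 24 genes (x axis), grouped by family down the page, with the OsSAP11 line in red above the OsRLCK253 line in blue. Bars are the standard error of the model, and filled points have an adjusted p under 0.05. WRKY22 lies farthest to the left and bHLH34 farthest to the right in both lines.

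By family, 1 of 5 WRKY genes, 2 of 5 bHLH genes, 1 of 13 bZIP genes and 0 of 1 NAC genes were called in the OsSAP11 line. In the OsRLCK253 line the counts were 1 of 5, 3 of 5, 1 of 13 and 0 of 1. In the same family order, arrays of the OsSAP11 line did not overlap those of wild type for 2, 3, 2 and 0 genes. Those of the OsRLCK253 line did not overlap them for 1, 5, 3 and 0 genes. Over all probe sets the shares without overlap were 31.7% and 46.4%. NAC014 did not pass at an unadjusted p under 0.05 in either comparison. The median log2 difference of the bHLH genes was -0.19 for the OsSAP11 line and -0.22 for the OsRLCK253 line, with members from -0.38 to 0.88 and from -0.45 to 0.96. The medians of the WRKY and bZIP genes lay between -0.0030 and 0.0072 in both lines. Each of these medians is the value of WRKY42, bZIP43 or BZIP34, which were under 16 on all 9 arrays. Adding 16 makes the differences of such dim genes small, so these medians say little of the brighter members and are unlike those of the bHLH genes. The families also differ in how many members gave a signal: 6 of 13 bZIP genes and 1 of 5 WRKY genes were under 16 on all 9 arrays, as were 36.5% of all probe sets, and no bHLH gene was. Among probe sets with a mean signal of at least 32, 21.0% were called for the OsSAP11 line and 22.9% for the OsRLCK253 line. Of the 13 genes here with such a signal, 3 and 4 were called.

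Some control measures moved with the groups. The 18 spike-in probe sets, which share a few transcripts added at hybridisation, were all lower in both lines, with a median log2 difference of -0.256 (range -0.428 to -0.0389) in the OsSAP11 line and -0.172 (range -0.421 to -0.0175) in the OsRLCK253 line. The 3' to 5' log2 ratio of 6 control pairs differed from wild type by -0.139 to 0.305 and by -0.128 to 0.223. The differences of bHLH121, bHLH104 and bHLH115 given below are of this size, and the part of these control measures in them was not tested. Of the 10 shoot and leaf marker genes listed, 3 were measured (RCA, PRK and LHCB4.2), and their summed signal was 50677 to 55593 in the OsSAP11 line, 54141 to 55941 in the OsRLCK253 line and 36238 to 40727 in wild type. Of 11 root markers only EXPA7 was measured, with 8.30 to 15.5, 13.9 to 29.0 and 5.41 to 8.50 in the same order, and no marker of the flower and seed lists was measured by a probe set that names it. The part of tissue composition in the results below was not tested.

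WRKY22 (AT4G01250), which acts downstream of the mitogen-activated protein kinase cascade triggered by bacterial flagellin and in dark-induced senescence, showed the largest difference of the 24 genes. Its signal was 5.66, 5.09 and 5.06 on the arrays of the OsSAP11 line, 8.30, 5.64 and 5.23 on those of the OsRLCK253 line, and 79.5, 46.1 and 36.7 on those of wild type. All 6 arrays of the lines were under 16 and all 3 wild type arrays were above it, so the groups did not overlap. The log2 difference was -1.67 ± 0.20 (SE, adjusted p = 0.00376) in the OsSAP11 line and -1.60 ± 0.20 (adjusted p = 0.00342) in the OsRLCK253 line. Because both lines were near the lowest signals of the array, the size of the difference rests on the 16 added before the logarithm. With 1 added it was -3.06 and -2.84, and with 32 added it was -1.18 and -1.13. The gene was called lower in both lines in all 16 alternative fits that tested it, including the 9 that left out 1 array. The filter on mean signal removed it from testing, since its mean over the 9 arrays was 21.9.

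The other WRKY genes were not called in any comparison. WRKY6 (AT1G62300), a regulator in senescence, defence and phosphate transport, had a signal of 53.6, 52.7 and 45.4 in OsSAP11 seedlings, 54.2, 52.6 and 53.0 in OsRLCK253 seedlings, and 59.9, 69.4 and 50.7 in wild type. Both lines lay at the lower end of the wild type arrays or below it, with log2 differences of -0.19 (adjusted p = 0.277) and -0.13 (adjusted p = 0.378). WRKY42 (AT4G04450), which acts with WRKY6 on phosphate transport, was between 4.17 and 4.38 on all 9 arrays, so nothing can be said of its level beyond that. WRKY20 (AT4G26640) had 198 ± 2.16 (SD, n = 3) in the OsSAP11 line, 196 ± 10.7 in the OsRLCK253 line and 185 ± 4.53 in wild type. Its log2 differences were 0.085 (95% interval -0.0020 to 0.172, adjusted p = 0.206) and 0.069 (95% interval -0.017 to 0.156, adjusted p = 0.253). Without OsRLCK253 replicate 1, which does not enter it, the first of these was unchanged at 0.085 but had an adjusted p of 0.0433. WRKY47 (AT4G01720) had 24.8 ± 1.13, 26.0 ± 4.10 and 20.5 ± 3.30 in the 3 groups in that order, with log2 differences of 0.16 (adjusted p = 0.316) and 0.20 (adjusted p = 0.178).

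**Figure D2:**
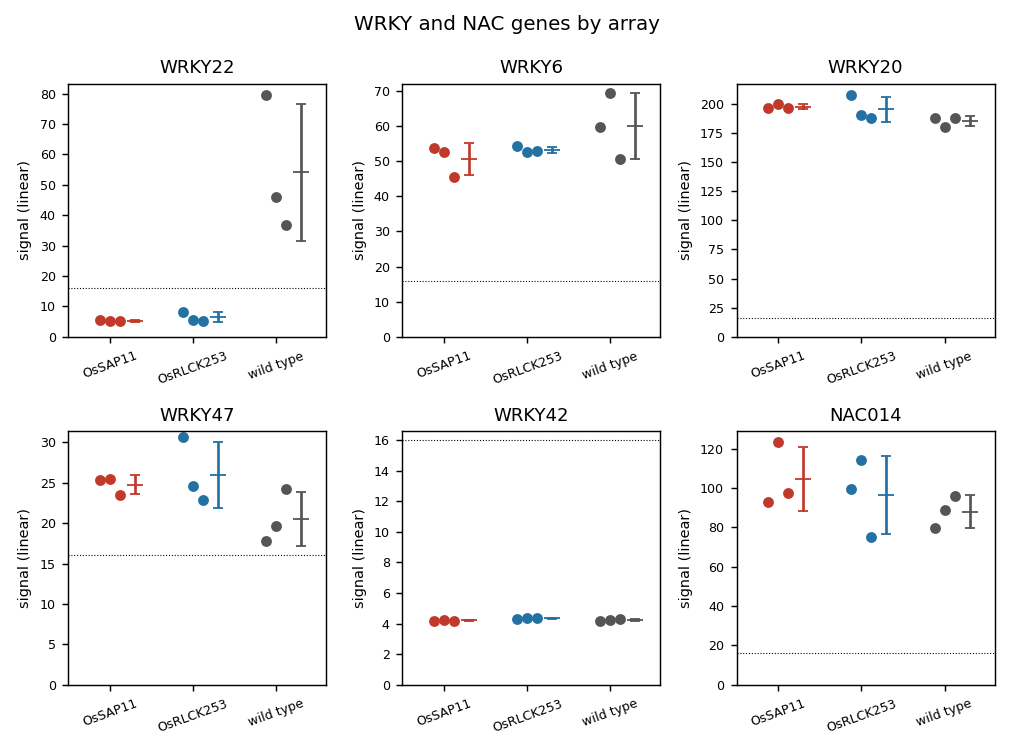
Signal on the linear scale (y axis, from 0) of the 5 WRKY genes and NAC014 on each array (points), with the mean and SD of 3 arrays beside them. Groups from left to right are the OsSAP11 line, the OsRLCK253 line, then wild type. The dotted line marks a signal of 16. WRKY22 is above the line on the wild type arrays alone, and WRKY42 is under it on every array.

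Among the bHLH genes, bHLH34 (AT3G23210), an activator of the iron-deficiency response, was the one that rose in both lines. Its signal was 92.5, 86.3 and 75.8 in OsSAP11 seedlings, 83.9, 98.2 and 90.8 in OsRLCK253 seedlings, and 38.1, 39.5 and 38.6 in wild type. The lowest array of either line, at 75.8, was well above the highest wild type array, at 39.5. On the log2 scale it rose by 0.88 ± 0.070 (SE, adjusted p = 0.000961) in the OsSAP11 line and by 0.96 ± 0.070 (adjusted p = 0.000442) in the OsRLCK253 line, which is 1.84-fold and 1.95-fold. The call held in each of the 17 alternative fits in both comparisons, with adjusted p from 6.1e-05 to 0.00818 in the OsSAP11 line and from 1.92e-05 to 0.00521 in the OsRLCK253 line.

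bHLH104 and bHLH115, which act in the same step as bHLH34, gave smaller differences. bHLH104 (AT4G14410), which dimerises with bHLH34 and bHLH115, had a signal of 451, 427 and 466 in OsSAP11 seedlings, 475, 433 and 402 in OsRLCK253 seedlings, and 539, 491 and 505 in wild type. Every array of the lines was under every wild type array, yet the differences did not pass: -0.19 ± 0.066 (SE, adjusted p = 0.135) in the OsSAP11 line and -0.22 ± 0.066 (adjusted p = 0.0749) in the OsRLCK253 line. Without OsRLCK253 replicate 1 the second was -0.28 with an adjusted p of 0.0295. bHLH115 (AT1G51070) had 480, 468 and 427 in OsSAP11 seedlings, 568, 552 and 532 in OsRLCK253 seedlings, and 458, 476 and 493 in wild type. It rose by 0.20 ± 0.049 (SE, adjusted p = 0.0380) in the OsRLCK253 line and had a log2 difference of -0.053 (95% interval -0.171 to 0.064, adjusted p = 0.655) in the OsSAP11 line. The rise is 1.15-fold, and it was not called in 7 of the 9 fits that left out 1 array (adjusted p from 0.0179 to 0.121 over the 9). The fits that kept it were those without OsSAP11 replicate 1 or 3, and the filter on mean signal and the trended prior also ended it (adjusted p = 0.105 and 0.0880).

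bHLH121 (AT3G19860), which pairs with bHLH34, bHLH104 and bHLH115 and is needed for most of the iron-deficiency response, was lower in both lines. Its signal was 202, 219 and 223 in OsSAP11 seedlings, 217, 239 and 224 in OsRLCK253 seedlings, and 313, 264 and 269 in wild type, with no overlap between either line and wild type. The log2 difference was -0.37 ± 0.072 (SE, adjusted p = 0.0198) in the OsSAP11 line and -0.29 ± 0.072 (adjusted p = 0.0399) in the OsRLCK253 line. In the OsSAP11 line the call was lost without OsSAP11 replicate 1 (adjusted p = 0.0663), without OsSAP11 replicate 2 (adjusted p = 0.0561) and when the OsRLCK253 arrays were left out (adjusted p = 0.0541). In the OsRLCK253 line it held without wild type replicate 2 and was lost in the other 8 fits that left out 1 array, with adjusted p from 0.0456 to 0.104 over the 9. There, quantile normalization, median centring, the trended prior and a fit without the OsSAP11 arrays also ended the call, with adjusted p of 0.0626, 0.0515, 0.0614 and 0.0950.

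BHLH101 (AT5G04150), which works with the master regulator FIT to turn on iron uptake in roots, was dim, with 5.10, 5.44 and 9.05 in OsSAP11 seedlings, 5.47, 5.50 and 5.19 in OsRLCK253 seedlings, and 12.3, 22.1 and 7.23 in wild type. Only 1 of the 9 arrays, wild type replicate 2, exceeded 16. Every array of the OsRLCK253 line was under every wild type array. The log2 differences, -0.38 (adjusted p = 0.228) and -0.45 (adjusted p = 0.141), did not pass, and without wild type replicate 3 the second was -0.62 with an adjusted p of 0.0456. PYE (AT3G47640), a bHLH repressor in iron-deficient roots that is named outside the symbol rule and is given here after its values were seen, had 44.4 ± 2.66 (SD, n = 3) in the OsSAP11 line, 41.1 ± 17.0 in the OsRLCK253 line and 54.8 ± 12.2 in wild type. Its log2 differences were -0.21 (adjusted p = 0.760) and -0.34 (adjusted p = 0.369).

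**Figure D3:**
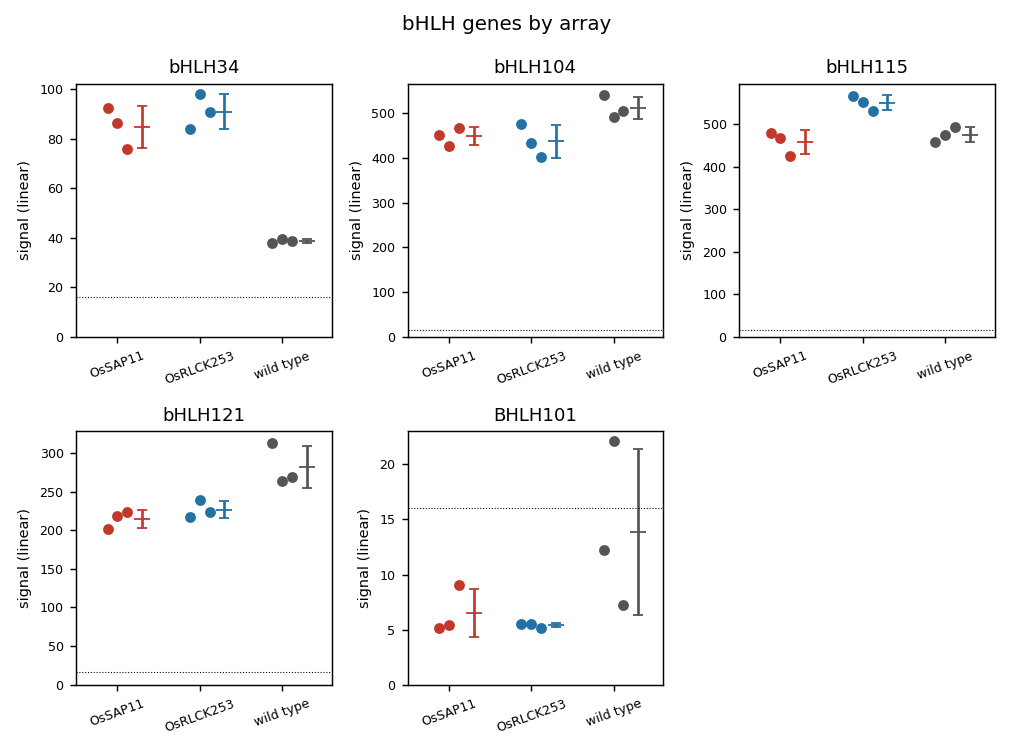
Signal on the linear scale (y axis, from 0) of the 5 bHLH genes on each array (points), with the mean and SD of 3 arrays beside them. Groups from left to right are the OsSAP11 line, the OsRLCK253 line, then wild type. The dotted line marks a signal of 16. bHLH34 is higher in both lines than in wild type, bHLH104 and bHLH121 lie under every wild type array in both, and bHLH115 is above wild type in the OsRLCK253 line.

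Of the bZIP genes, BZIP53 (AT3G62420) was the one called. It belongs to the group of small bZIP factors whose translation is repressed by sucrose, and it acts in seed maturation and in the reprogramming of amino acid metabolism under low energy. Its signal was 697, 820 and 756 in OsSAP11 seedlings, 834, 745 and 834 in OsRLCK253 seedlings, and 1263, 1306 and 1029 in wild type. The highest array of either line, at 834, was under the lowest wild type array. The log2 difference was -0.65 ± 0.105 (SE, adjusted p = 0.00988) in the OsSAP11 line and -0.56 ± 0.105 (adjusted p = 0.0150) in the OsRLCK253 line, which is 1.57-fold and 1.48-fold lower. The call in the OsSAP11 line held in all 17 alternative fits. In the OsRLCK253 line it was lost without wild type replicate 1, where the difference was -0.52 (adjusted p = 0.0571).

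bZIP44 (AT1G75390), of the same sucrose-repressed group as BZIP53, was not called. Its signal was 88.1, 90.3 and 84.2 in OsSAP11 seedlings, 151, 99.3 and 126 in OsRLCK253 seedlings, and 80.8, 123 and 90.7 in wild type. The arrays of both lines overlapped those of wild type, with log2 differences of -0.12 (95% interval -0.528 to 0.279, adjusted p = 0.838) and 0.31 (95% interval -0.095 to 0.711, adjusted p = 0.269).

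BZIP17 and BZIP28 encode membrane-tethered factors that are released by proteolysis under endoplasmic reticulum stress, BZIP17 also under salt stress. BZIP17 (AT2G40950) had 107, 119 and 126 in OsSAP11 seedlings, 90.7, 87.0 and 59.0 in OsRLCK253 seedlings, and 68.6, 93.0 and 83.3 in wild type. All arrays of the OsSAP11 line were above all others, with a log2 difference from wild type of 0.45 ± 0.16 (SE, adjusted p = 0.121), while the OsRLCK253 line differed by -0.051 (adjusted p = 0.826). Without OsRLCK253 replicate 3, which does not enter it, the first difference was unchanged at 0.45 but had an adjusted p of 0.0439. Its adjusted p was 0.0358 when probe sets with a mean signal under 32 were left out. BZIP28 (AT3G10800) was among the genes closest to no difference, with 189 ± 3.86 (SD, n = 3) in the OsSAP11 line, 182 ± 17.4 in the OsRLCK253 line and 187 ± 16.5 in wild type. Its log2 differences were 0.021 (95% interval -0.162 to 0.203, adjusted p = 0.965) and -0.034 (95% interval -0.217 to 0.149, adjusted p = 0.759).

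bZIP19 (AT4G35040), a sensor of zinc status that activates zinc transporter genes, had 311 ± 33.4 in the OsSAP11 line, 306 ± 39.6 in the OsRLCK253 line and 291 ± 23.2 in wild type (SD, n = 3 each). The differences were 0.087 (95% interval -0.182 to 0.357, adjusted p = 0.818) and 0.065 (95% interval -0.205 to 0.335, adjusted p = 0.693). BZIP61 (AT3G58120) had 110 ± 21.0, 83.4 ± 0.794 and 82.4 ± 25.9 in the same order, with differences of 0.38 (adjusted p = 0.315) and 0.048 (adjusted p = 0.870). The wild type arrays of BZIP61 spread from 57.2 to 109, wider than its differences between groups.

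The other 7 bZIP genes gave little or no signal. BZIP24, a salt-stress regulator of the same group as bZIP19, lay between 7.14 and 9.08 on the 9 arrays. BZIP34, a pollen regulator, lay between 4.12 and 4.32, bZIP42 between 4.85 and 5.23, bZIP43 between 5.37 and 6.02, bZIP48 between 5.26 and 5.91, and bZIP52 between 4.28 and 8.14. These 6 genes and WRKY42 make up the 7 that were under 16 on all 9 arrays, and none of the 7 was called or passed at an unadjusted p under 0.05 in any comparison. bZIP58 (AT1G13600) exceeded 16 on 1 array, wild type replicate 1, with 26.6, and had log2 differences of -0.22 (adjusted p = 0.559) and -0.16 (adjusted p = 0.534).

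**Figure D4:**
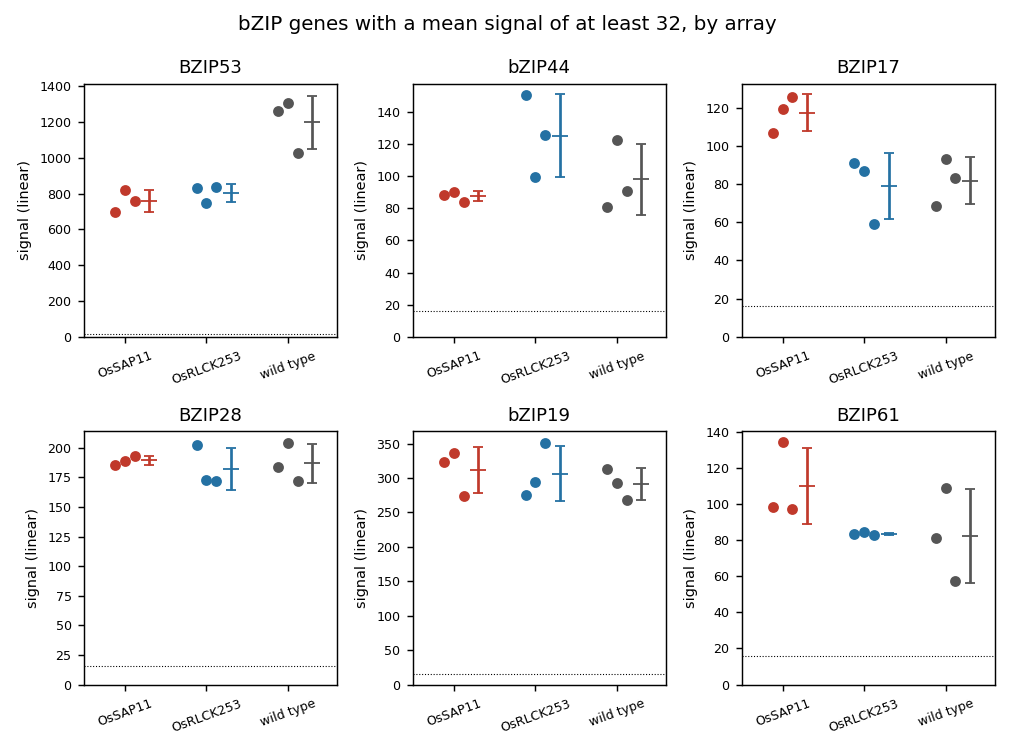
Signal on the linear scale (y axis, from 0) of the 6 bZIP genes with a mean signal of at least 32 on each array (points), with the mean and SD of 3 arrays beside them. Groups from left to right are the OsSAP11 line, the OsRLCK253 line, then wild type. The dotted line marks a signal of 16. BZIP53 lies under every wild type array in both lines, and BZIP17 is highest in the OsSAP11 line.

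NAC014 (AT1G33060), the NAC gene measured, had a signal of 93.0, 123 and 97.3 in OsSAP11 seedlings, 99.3, 114 and 75.1 in OsRLCK253 seedlings, and 79.5, 88.8 and 95.8 in wild type. The groups overlapped, and its log2 differences from wild type were 0.21 (95% interval -0.158 to 0.572, adjusted p = 0.523) and 0.097 (95% interval -0.268 to 0.462, adjusted p = 0.666).

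The lines were also compared with each other, which tests whether their differences from wild type are unequal. At an adjusted p under 0.05, 1 of the 24 genes was called, in the lower direction, against 5.21% of all probe sets (3.34% higher, 1.87% lower). Among those with a mean signal of at least 32, 1 of 13 genes was called, against 8.52% of all. The arrays of the lines did not overlap for 8 genes, or 33.3%, against 50.6% of all probe sets. This was bHLH115, with 458 ± 27.9 in the OsSAP11 line against 551 ± 17.8 in the OsRLCK253 line (SD, n = 3 each), a log2 difference of -0.26 ± 0.049 (SE, adjusted p = 0.0356). The call was lost in each of the 9 fits that left out 1 array, with adjusted p from 0.0524 to 0.0849 and differences from -0.29 to -0.21. Wild type arrays do not enter this difference, and in the fits without one of them it stayed at -0.26, with adjusted p from 0.0524 to 0.0595. The call was also lost with the filter on mean signal, the trended prior and the lines fitted alone. The genes called against wild type in both lines did not pass between the lines, and their intervals bound how far the lines could differ. OsSAP11 minus OsRLCK253 was -0.072 for WRKY22 (95% interval -0.554 to 0.411), -0.086 for bHLH34 (-0.253 to 0.081), -0.072 for bHLH121 (-0.243 to 0.099) and -0.086 for BZIP53 (-0.335 to 0.163). The interval for WRKY22 is the widest of these. The model shares 1 spread over the 3 groups, and for WRKY22 the SD was 22.5 in wild type against 0.340 and 1.67 in the lines. Its signals in both lines were near the lowest on the array, so its interval says little of how far the RNA levels could differ.

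Larger differences between the lines were found for BZIP17 and bZIP44, without a call. BZIP17 was 0.51 ± 0.16 (SE, adjusted p = 0.117) higher in the OsSAP11 line on the log2 scale, and all 3 of its arrays there were above those of the OsRLCK253 line. When probe sets with a mean signal under 32 were left out, its adjusted p was 0.0370. bZIP44 had a difference of -0.43 ± 0.17 (SE, adjusted p = 0.171), with all 3 arrays of the OsSAP11 line under those of the OsRLCK253 line.

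**Figure D5:**
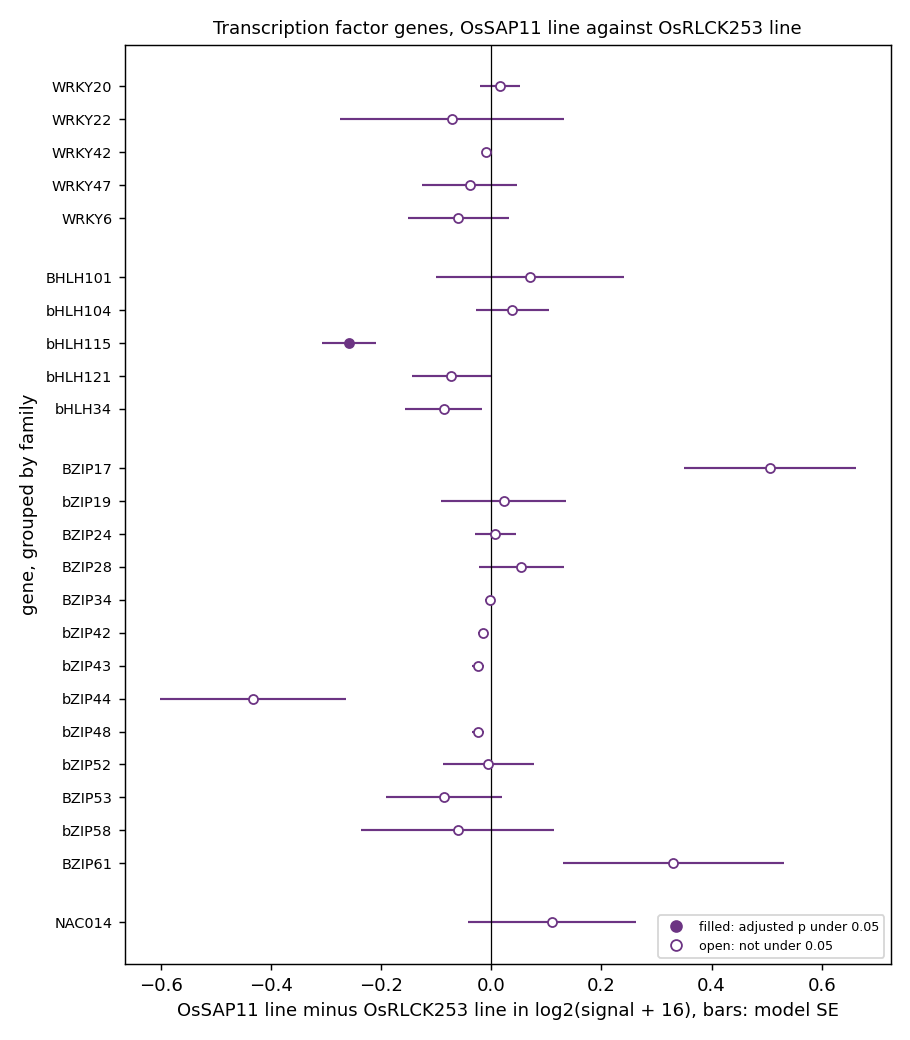
OsSAP11 line minus OsRLCK253 line in log2(signal + 16) for the 24 genes (x axis), grouped by family down the page. Bars are the standard error of the model, and the filled point, bHLH115, has an adjusted p under 0.05. BZIP17 and bZIP44 lie farthest from 0 without passing.

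Transcription factor genes named outside the 7 symbol forms give the setting for these counts. A list of 59 such genes, among them IAA and LBD genes and single names, had 7 called in the OsSAP11 line (4 higher, 3 lower) and 6 in the OsRLCK253 line (2 higher, 4 lower). These are 11.9% and 10.2% of the list, beside 12.6% and 13.8% of all probe sets. The list is dimmer than the array: 43 of the 59 (72.9%) were under 16 on all 9 arrays, against 36.5% of all probe sets. Of probe sets this dim, 0.699% and 0.952% were called. The shares of the list are therefore not on like terms with those of all probe sets, and they do not place its brighter genes near the background. HYH (AT3G17609), a light-signalling bZIP factor and the homologue of HY5, had 75.1, 53.0 and 61.2 in OsSAP11 seedlings, 124, 123 and 152 in OsRLCK253 seedlings, and 31.3, 33.5 and 33.6 in wild type. It rose by 0.69 ± 0.12 (SE, adjusted p = 0.0110) and by 1.61 ± 0.12 (adjusted p = 0.000426), and the lines differed by -0.92 (adjusted p = 0.0109). The call held in all 17 alternative fits of each of the 3 comparisons.

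TRY (AT5G53200), a small MYB protein that represses trichome formation, had 25.0, 19.6 and 18.3 in OsSAP11 seedlings, 89.3, 107 and 111 in OsRLCK253 seedlings, and 23.7, 13.9 and 24.2 in wild type. It rose by 1.70 ± 0.14 (SE, adjusted p = 0.000680) in the OsRLCK253 line and differed by 0.024 (95% interval -0.308 to 0.357, adjusted p = 0.965) in the OsSAP11 line. PHV (AT1G30490), a homeodomain gene of leaf polarity, rose by 0.43 (adjusted p = 0.0334) in the OsSAP11 line, with 117 ± 10.1 against 83.2 ± 13.3 in wild type, and it lost the call in 7 of the 9 fits that left out 1 array, all but those without OsSAP11 replicate 1 or wild type replicate 1. The homeodomain gene HAT2 was called higher in the OsSAP11 line (0.37, adjusted p = 0.0396) and lower in the OsRLCK253 line (-0.35, adjusted p = 0.0450). The first of these calls was lost in all 9 fits that left out 1 array and the second in 7 of them, those without OsSAP11 replicate 3 or wild type replicate 3 being the exceptions. Between the lines HAT2 differed by 0.72 (adjusted p = 0.0104), a call that held in all 17 alternative fits, with 169 ± 16.7 in the OsSAP11 line against 96.4 ± 6.19 in the OsRLCK253 line (SD, n = 3 each). IAA29 was called higher in the OsSAP11 line (0.20, adjusted p = 0.0337), under 16 on all 9 arrays, and when single arrays were left out it kept the call in 1 of 9 fits, the one without OsSAP11 replicate 1. STZ, a zinc-finger repressor, had 14.4, 12.8 and 50.8 in OsSAP11 seedlings, 320, 14.9 and 110 in OsRLCK253 seedlings, and 1374, 1459.9 and 1100.1 in wild type. The log2 difference was -5.09 (adjusted p = 0.0102) in the OsSAP11 line, where 2 arrays were under 16 and the value ran from -5.87 with 1 added to the signal to -4.58 with 32 added. In the OsRLCK253 line, whose arrays spread widely, it was -3.59 (adjusted p = 0.0331), -4.40 without OsRLCK253 replicate 1 and -2.68 without OsRLCK253 replicate 2. There its call was lost in 6 of the 9 fits, all but those without OsSAP11 replicate 3 or OsRLCK253 replicate 1 or 2.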

How the data were processed

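The files hold deposited intensities, a linear signal for each probe set on each array. The arrays are Affymetrix arrays hybridised with biotin-labelled cRNA, per the labels' protocols. GCOS is named per the submitters' processing notes, but no source used here gives the summarisation, background correction or scaling. Of 22810 probe sets, 64 controls were set aside and 22746 tested. Array medians of the signal over all probe sets were 43.2 to 46.5. Medians of log2(signal + 16) over the probe sets tested differed by 0.0777, under the limit of 0.1, so no further scaling was applied. Signals were transformed as log2(signal + 16), which makes the differences of dim genes smaller. The 9 arrays were modelled together in limma 3.58.1 (R 4.3.3), with a mean for every group (empirical Bayes, 6 residual and 0.773 prior degrees of freedom). Tests are two-sided, and the Benjamini-Hochberg adjustment covers all probe sets tested. The fit was tested on simulated data. Errors are the SD of 3 arrays or the SE of the model, and the number of arrays limits the precision. The p-values set each difference against the spread between arrays of the same group. With a single line for each transgene, no spread between independent lines enters them.

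Gene names come from the platform annotation, and all 24 genes matched the RefSeq gene table of TAIR10.1, which gave the locus codes. The members and lists were chosen with earlier results of these data known. Named are genes called in any comparison, those with an adjusted p of 0.05 to 0.1 against wild type, the brightest gene of each family, the 3 closest to no difference among those with a mean signal above the median of all probe sets, and up to 4 called genes by direction of the list of other transcription factor genes. The remaining members are named so that every gene is accounted for. Some genes of that last list are not reported here. Alternatives were quantile normalization, median centring, 1 or 32 added to the signal, a mean signal of at least 32, 2 groups fitted alone, a trended and robust prior, replicate number as a block, all probe sets of a gene, thresholds of 0.01 and 0.1, and each array left out. No test of a family as a set was made.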

Additional observations from a re-analysis of the deposited data

Results flagged for a closer look

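bHLH115 differed between the lines, by a test of the difference itself: the OsSAP11 line minus the OsRLCK253 line was -0.258 on the log2 scale (SE 0.049, limma, adjusted p = 0.0356). The arrays of the lines did not overlap, with 427 to 480 in the OsSAP11 line and 532 to 568 in the OsRLCK253 line, as was so for 50.6% of all probe sets. That share is raised by dim probe sets, with 77.7% of the 8299 under 16 on all 9 arrays not overlapping, and bHLH115 is not dim. Lack of overlap was also common among brighter genes: it was found for 4 (30.8%) of the 13 genes here with a mean signal of at least 32. The call was lost in each of the 9 fits that left out 1 array. These include the fits without a wild type array, in which the difference itself was unchanged.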

How the results depend on the processing

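The counts of called genes were 4 in the OsSAP11 line, 5 in the OsRLCK253 line and 1 between the lines. Leaving out 1 array gave 3 to 5, 2 to 4 and 0 in every fit. An array of the group not compared enters only the spread and the adjustment, so leaving it out does not change the difference. Over the other alternatives the first count stayed between 3 and 4. The second was 3 with the filter on mean signal, 3 with a trend and a robust prior, 2 with the replicate block and 2 at a threshold of 0.01. The third was 0 with the lines fitted alone, with a trend and a robust prior, with the replicate block and at a threshold of 0.01. Replicate numbers did not pair the arrays: deviations of same-numbered arrays correlated between -0.127 and 0.181, and not every array correlated best with its own number. Among the 24 genes, with the replicate block, the calls of bHLH121 in the OsSAP11 line (adjusted p = 0.0722), of bHLH121, bHLH115 and BZIP53 in the OsRLCK253 line (0.104, 0.0828 and 0.0504) and of bHLH115 between the lines (0.0832) were lost. Differences that were not called could change sign, and all were small. Leaving out 1 array gave ranges in the OsSAP11 line against wild type of -0.0332 to 0.0823 for BZIP28 and -0.1162 to 0.0989 for TRY. In the OsRLCK253 line the ranges were -0.0194 to 0.2399 for NAC014, -0.1056 to 0.0277 for BZIP28 and -0.0317 to 0.1359 for bZIP19. For the OsSAP11 line minus the OsRLCK253 line they were -0.0175 to 0.0987 for bHLH104, -0.0327 to 0.2266 for NAC014, -0.0096 to 0.0571 for WRKY20 and -0.0484 to 0.1192 for bZIP19. Quantile normalization gave -0.0194 for BZIP28 in the OsSAP11 line, and between the lines -0.0208 for WRKY20 and -0.0206 for bZIP19. Median centring gave -0.0158 for WRKY20 and -0.0093 for bZIP19 between the lines. The causes were not tested. No called gene changed direction under any of these alternatives. Signals under 16 on all 9 arrays limit what can be said of 7 of the 24 genes. The same limit holds in part for BHLH101 and bZIP58, each under 16 on 8 arrays, and for WRKY22, under 16 on 6.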

Other observations

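Among all 8299 probe sets under 16 on all 9 arrays, the arrays of the lines did not overlap in 77.7%, with a median log2 difference of -0.0161, while 0.651% were called. Against wild type, the share without overlap was 55.9% for the OsRLCK253 line and 7.76% for the OsSAP11 line. Of the 7 transcription factor genes this dim, 4, 2 and 0 had arrays that did not overlap in these 3 comparisons, taken in that order.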
